A study of Mus musculus with 14 samples.

Results

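The genes described here belong by symbol to families that build and serve cilia and centrosomes. They are called cilium genes below, though a role in the photoreceptor cilium was not checked for each. They are the intraflagellar transport (IFT), Bardet-Biedl syndrome (BBS), centrosomal (Cep), nephronophthisis (Nphp), tectonic, RPGR, UNC119 and small ARL GTPase genes, and they were taken from the gene expression table by their symbols, with no use of measured change. In all, 79 of the 24421 genes listed matched by symbol, and 76 of these had at least 10 counts in at least 3 of the 6 RNA-seq libraries, a minimum that 12363 genes of the whole table met. Cep55, Cep85l and Ttc30a2 fell under it, with 1, 10 and 0 counts of Cep55 in the 3 rod libraries, 12, 12 and 3 of Cep85l, and 9, 6 and 7 of Ttc30a2. Cep112 met the minimum through the libraries of Nrl-/- photoreceptors alone, with 4, 4 and 9 counts in rods and 304, 262 and 185 in Nrl-/-.

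The study compared mouse rods with cones, using sorted cells of C57BL/6 mice aged 8 weeks. Rods came from Nrl-eGFP mice, in which the rod gene Nrl drives the green reporter. Photoreceptors of Nrl-eGFP;NrlKO mice carry the same reporter and lack Nrl, the transcription factor that sets rod identity, so that cells which would have been rods take on a cone-like state. The labels call them blue cones. Native green cones came from Opn1mw-GFP mice and were passed through the sorter either a single time or again. For single-sorted replicate 1 the study's sample sheet names the Nrl-/- line where the label names Opn1mw-GFP, so its source is in doubt. RNA-seq was done on 3 libraries each of rods and Nrl-/- photoreceptors, and ATAC-seq, which marks open DNA by transposase insertion, on 2 libraries each of rods, Nrl-/- photoreceptors, single-sorted and double-sorted green cones. RNA of native green cones was not analysed here, so every expression comparison sets rods against Nrl-/- photoreceptors.

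The outer segment of a photoreceptor is a modified cilium, joined to the cell body by a narrow connecting cilium that corresponds to the transition zone of other cilia. Proteins made in the inner segment reach the disc membranes through it. The IFT-B complex with kinesin-2 carries cargo towards the tip and IFT-A with dynein-2 carries it back, the BBSome is a coat that moves membrane proteins along these trains, and a set of transition zone proteins forms the gate. Prenylated and acylated proteins such as phototransduction subunits are carried by UNC119 and its relatives and released inside the cilium by the GTPase ARL3. Loss of many of these genes causes retinal degeneration.

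RFX transcription factors bind a paired sequence called the X-box, known from the promoters of ciliary genes, and the promoter sequences are shown for that reason. The pattern searched was GTNNCCNNGGNNAC, which reads the same on both strands and where N is any base. In RefSeq promoter windows from 250 bases before to 50 after the start site (GRCm38.p6), 65 of the 76 genes had an entry. The pattern was found in 14 of these, or 21.5%, against 293 of 9811 genes tested in the RNA-seq comparison, or 2.99%. Median GC content of the window was 62% in both sets. Each site is printed on the strand of its gene with up to 8 bases on either side, and capitals mark the match. The coordinates are those of the capitals. Cep83os, read in the opposite direction, shares the Cep83 site.
Bbs1, chr19:4906613-4906626, minus strand: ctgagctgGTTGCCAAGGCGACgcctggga
Bbs4, chr9:59353472-59353485, minus strand: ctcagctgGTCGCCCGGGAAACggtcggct
Bbs7, chr3:36613497-36613510, minus strand: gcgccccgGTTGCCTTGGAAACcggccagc
Ift22, chr5:136908087-136908100, plus strand: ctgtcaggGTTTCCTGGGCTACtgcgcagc
Ift22, chr5:136908117-136908130, plus strand: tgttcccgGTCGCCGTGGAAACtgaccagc
Ift57, chr16:49699207-49699220, plus strand: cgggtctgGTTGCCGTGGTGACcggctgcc
Mks1, chr11:87853191-87853204, plus strand: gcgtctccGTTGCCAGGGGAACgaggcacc
Nphp4, chr4:152477911-152477924, plus strand: cggtgcccGTCTCCTAGGTAACgcgccagc
Tctn1, chr5:122264411-122264424, minus strand: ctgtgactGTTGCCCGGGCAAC
Tctn2, chr5:124598687-124598700, plus strand: gattggagGTTACCATGGCTACtggtcctc
Cep19, chr16:32099811-32099824, plus strand: agccttctGTTGCCTTGGGAACgatcctcg
Cep44, chr8:56550669-56550682, minus strand: ttggtacgGTAGCCTTGGGAACctttcagt
Cep83, chr10:94688776-94688789, plus strand: ccctccgaGTTTCCCGGGCTACctcaacct
Cep112, chr11:108425182-108425195, plus strand: cccggagcGTCGCCATGGCAACagagttga

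GTTGCCA, a part of many X-box sites, lay in 10 of the 65 windows, or 15.4%, against 4.88% of all, and 5 of the 10 also held the whole pattern. The photoreceptor factor patterns were found at shares close to those of all genes. CTAATCC, a binding sequence of the photoreceptor factor CRX, lay in 3.08% of the 65 windows and 2.68% of all, its variant CTAAGCC in 3.08% and 3.94%, and TGCTGAC, a core of the NRL site, in 6.15% and 4.34%, on either strand. These are matches of letters and not measured sites. Of the 14 genes with an X-box match, 4 were higher in rods (29.5% of all genes tested were) and 5 higher in Nrl-/- photoreceptors (31.4% of all) in the RNA-seq test against no change described below, and their median log2 fold change was 0.009. Of the 51 genes without a match, 32 were higher in rods and 7 in Nrl-/-, with a median of 0.74. Of the 5 genes higher in Nrl-/-, Cep112 met the count minimum through the Nrl-/- libraries alone. The difference between the 14 and the 51 was not tested.

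The open chromatin elements on which the ATAC-seq results turn are shown next, as 200 bp elements of the deposited list read from the plus strand of GRCm38. Capitals mark the X-box in the Cep112 element, CTAATCC, on the other strand, in the Arl3 element, and CTAAGCC and TGCTGAC, also on the other strand, in the Cep164 element. None of the patterns was found in the Rpgrip1 element. Over all 53191 elements that could be read, 1.03% held the X-box, 7.61% CTAATCC, 5.61% CTAAGCC and 3.98% TGCTGAC.
Cep112 promoter, more open in cones, chr11:108425053-108425252: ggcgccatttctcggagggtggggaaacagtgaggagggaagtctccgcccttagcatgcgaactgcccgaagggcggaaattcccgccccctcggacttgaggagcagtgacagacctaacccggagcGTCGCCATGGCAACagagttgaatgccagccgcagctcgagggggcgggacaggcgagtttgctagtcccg
Rpgrip1 promoter, more open in rods, chr14:52110480-52110679: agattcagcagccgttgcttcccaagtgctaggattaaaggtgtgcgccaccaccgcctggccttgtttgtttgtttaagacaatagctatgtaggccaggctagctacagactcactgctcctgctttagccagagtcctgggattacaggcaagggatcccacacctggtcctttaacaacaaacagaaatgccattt
Cep164 intron, more open in rods, chr9:45805111-45805310: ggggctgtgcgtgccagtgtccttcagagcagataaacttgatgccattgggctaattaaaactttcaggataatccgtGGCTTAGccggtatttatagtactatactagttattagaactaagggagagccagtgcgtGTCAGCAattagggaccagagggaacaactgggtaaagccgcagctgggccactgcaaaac
Arl3 intron, more open in rods, chr19:46563236-46563435: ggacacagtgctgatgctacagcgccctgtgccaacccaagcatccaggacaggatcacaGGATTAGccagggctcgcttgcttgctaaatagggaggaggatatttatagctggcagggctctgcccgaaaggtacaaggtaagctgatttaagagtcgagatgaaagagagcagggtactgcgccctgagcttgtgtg

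Total counts over genes ran from 18376770 to 26312895 per RNA-seq library, and totals in elements from 1062403 to 5770075 per ATAC-seq library, lowest in the double-sorted green cones. The targeted gene Nrl was at 599 to 845 CPM (counts scaled to library size after TMM normalization) in rods and 24.6 to 39.3 in Nrl-/- photoreceptors, so the 6 RNA-seq libraries matched their labels, and the ATAC-seq libraries have no such check. The 8 rod phototransduction genes summed to 95833 to 127750 CPM in rods and 9552.5 to 13660 in Nrl-/-, and the 8 cone genes to 558 to 567 and 79183 to 89084. Among replicates, Nrl-/- replicates 1 and 3 differed most. Summed over 7 bipolar cell markers, rods held 79.8 to 108 CPM and Nrl-/- photoreceptors 1372 to 1567, of which Cabp5 alone made up 1402 ± 100.3 (SD, n = 3), while the bipolar marker Prkca was higher in rods. The sum of 6 microglia markers was 1.62 to 2.50 CPM in rods and 15.1 to 37.8 in Nrl-/-, and that of 7 Müller glia markers 53.1 to 84.2 and 99.1 to 165. Without Apoe, left out after seeing the data, the Müller glia sum was 41.8 to 62.8 in rods and 31.7 to 48.6 in Nrl-/-, and Slc1a3 and Aqp4 were higher in rods against no change. Sums of 6 amacrine and 4 endothelial markers were higher in rods, at 108 to 128 against 69.3 to 83.8 and 6.90 to 11.4 against 1.78 to 3.01. Of the amacrine sum, Slc6a9 alone made up 117 ± 11.5 CPM in rods and 76.1 ± 8.06 in Nrl-/- (SD, n = 3). Only 2 of the 6 amacrine markers could be tested, and the other, Pax6, did not pass against no change. Of the 2 endothelial markers tested, Pecam1 was higher in rods and Kdr did not pass. The study lists lower RNA integrity for the rod libraries. RNA integrity and the groups cannot be told apart in this design, and the part of other cells in the results was not tested. In sorted bulk samples, fewer cells of a type and less RNA per cell cannot be told apart.

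Most cilium genes were moderately higher in rods, and a few changed strongly in either direction. Their counts came to 0.911% to 0.985% of all gene counts in rods and 0.734% to 0.781% in Nrl-/- photoreceptors, with no overlap between the groups. The median log2 fold change, rods over Nrl-/-, was 0.57 over the 76 genes and 0.0080 over the 12327 genes tested, and 53 of the 76 were above 0. In the edgeR quasi-likelihood test against no change, at a Benjamini-Hochberg adjusted p under 0.05, 42 genes were higher in rods (29.5% of all genes tested were) and 14 higher in Nrl-/- (31.4% of all), and 20 did not pass, while 60.9% of all genes passed in either direction. The 3 rod libraries lay above all 3 Nrl-/- libraries for 44 genes (33.2% of all genes tested) and below them for 17 (33.8%), and the groups overlapped for 15. In the test against the study's threshold, a 2-fold change, 6 genes were higher in rods (6.88% of all) and 2 higher in Nrl-/- (13.3% of all). In either direction 20.1% of all genes passed. Nrl-/- replicate 1 weighed on the first count: without it 12 genes passed in rods, with Cc2d2a, Cep135, Cep192, Cep295, Cep83 and Rpgrip1 added. The counts of genes higher in Nrl-/- include Cep112, which met the count minimum through those libraries alone.

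**Figure D1:**
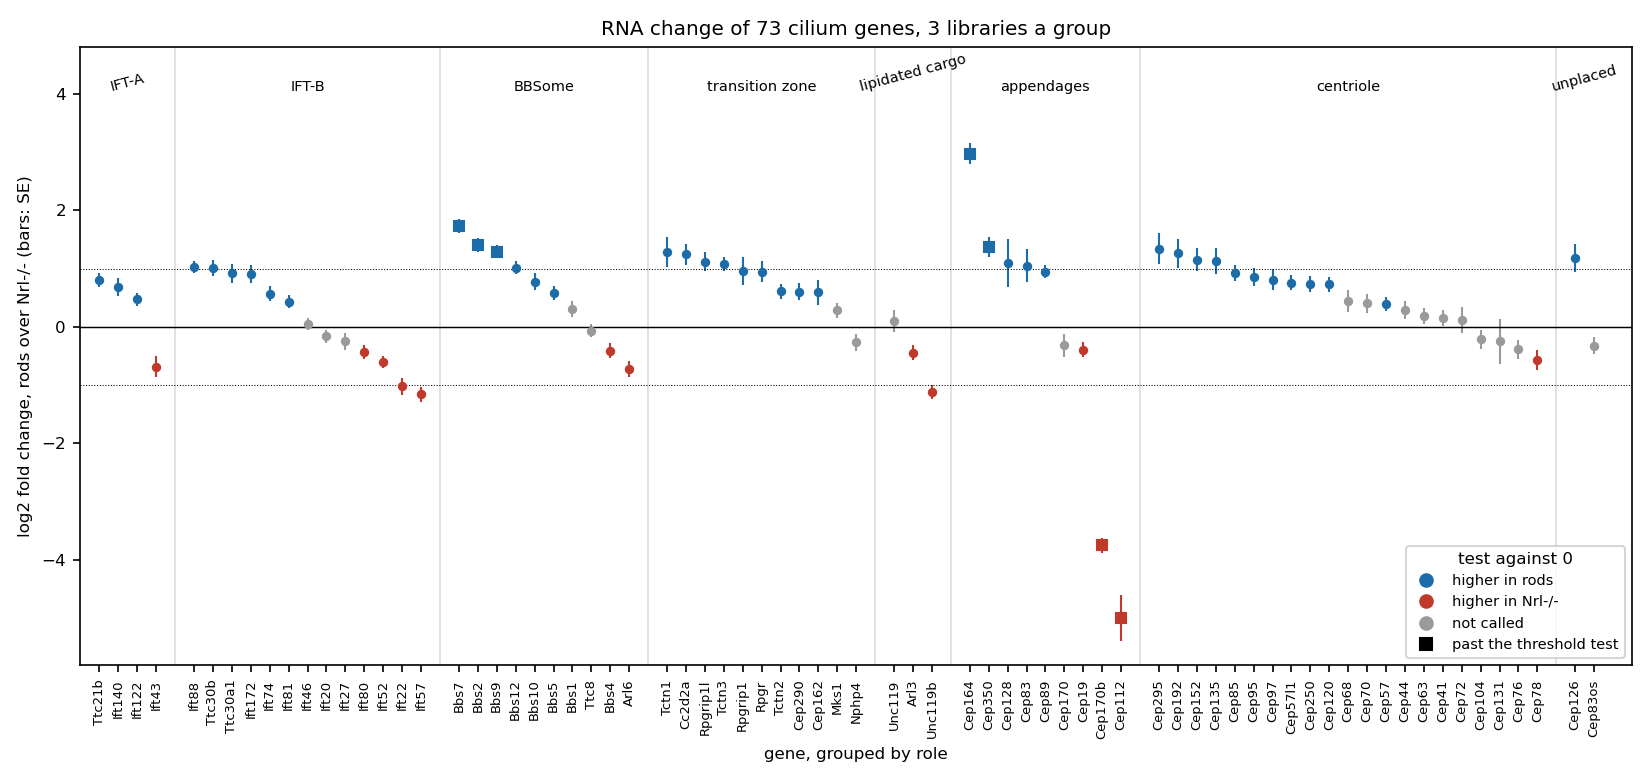
Log2 fold change, rods over Nrl-/- photoreceptors, with standard error for 73 of the 76 cilium genes, grouped by role and ordered within each group. Squares passed the test against a 2-fold change, colours give the test against no change, and dotted lines mark a 2-fold change. Of the 73 points 51 lie above 0, with Cep164 far above and Cep170b and Cep112 far below.

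Cep164, Bbs7, Bbs2, Cep350 and Bbs9 were among the 6 genes past the threshold in rods. Cep164, which docks the basal body to the membrane through the distal appendages, measured 195, 193 and 203 CPM in the 3 rod libraries and 33.2, 23.3 and 19.01 in the 3 Nrl-/- libraries. It was 7.82-fold higher in rods (log2 fold change 2.97, SE 0.18, edgeR adjusted p = 5.68e-07 against a 2-fold change). The groups did not come near each other, and the lowest rod library was above the highest Nrl-/- library by a wide margin.

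The BBSome contributed 3 of these genes. Bbs7, a beta-propeller subunit of the BBSome, was at 720, 851 and 831 CPM in rods and 242, 257 and 224 in Nrl-/- (log2 fold change 1.73, SE 0.12, adjusted p = 5.61e-05). Bbs2, which pairs with BBS7 and BBS9, was at 224, 205 and 212 CPM against 90.0, 79.4 and 73.4 (log2 fold change 1.40, SE 0.12, adjusted p = 0.00334). Bbs9 was at 344, 342 and 329 CPM against 149.5, 133 and 133 (log2 fold change 1.29, SE 0.11, adjusted p = 0.0132). The rod libraries stood above the Nrl-/- libraries for all 3 genes. Cep350, a centrosomal protein that anchors microtubules and works with CEP19, was at 53.5, 51.3 and 48.2 CPM in rods and 26.0, 16.5 and 17.0 in Nrl-/-. Its call was the least firm of the 8 (log2 fold change 1.37, SE 0.17, adjusted p = 0.0375). Without any single rod library, or without Nrl-/- replicate 2 or 3, the p of Cep350 rose to between 0.0531 and 0.153, and with DESeq2 to 0.386. Bbs9 was lost with DESeq2 (adjusted p = 0.0881), and in edgeR without Nrl-/- replicate 2 (adjusted p = 0.0578).

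Both genes higher in Nrl-/- photoreceptors belong to the appendage and centrosome group. Cep170b, a relative of the subdistal appendage protein CEP170, was at 10.5, 10.0 and 8.90 CPM in rods and 131, 135 and 131 in Nrl-/-. It was 13.5-fold higher in Nrl-/- (log2 fold change -3.75, SE 0.12, adjusted p = 1.01e-09). Cep112, a coiled-coil centrosomal protein, was at 0.202, 0.209 and 0.501 CPM in rods and 12, 10.2 and 6.92 in Nrl-/-. It was 31.8-fold higher in Nrl-/- (log2 fold change -4.99, SE 0.39, adjusted p = 1.97e-06), and its rod values rest on the 4, 4 and 9 reads given above. CEP170 itself was measured too, with Cep170 at 13.3 ± 2.87 CPM in rods and 16.6 ± 2.68 in Nrl-/- (SD, n = 3), overlapping and not called.

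**Figure D2:**
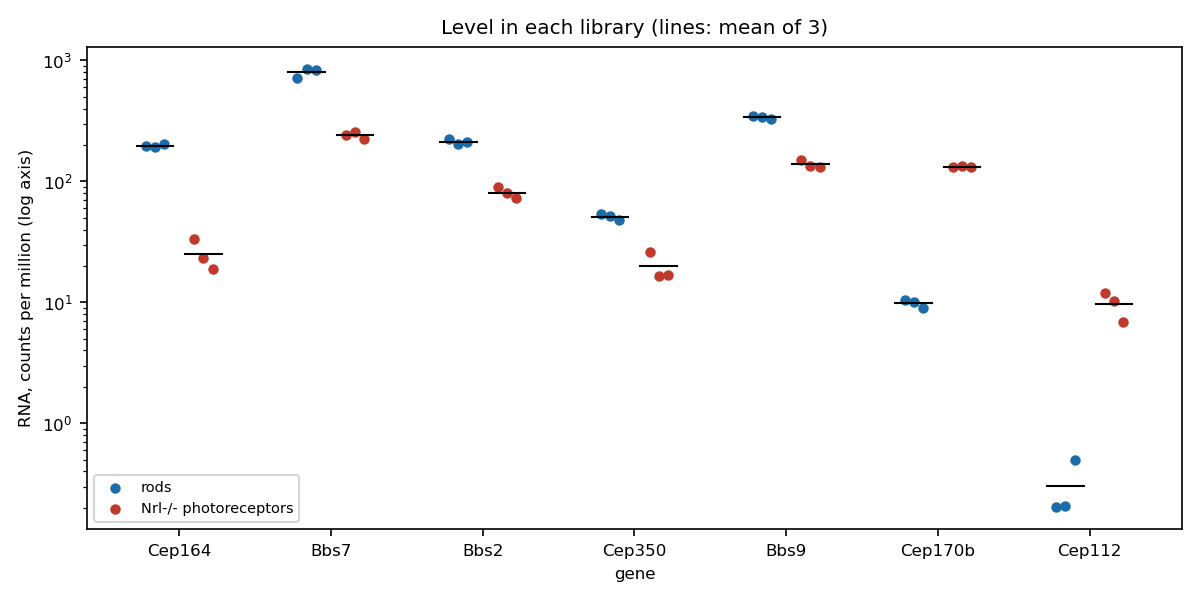
RNA level of 7 of the 8 genes past the test against a 2-fold change, in CPM on a log axis, with a point for each of the 3 rod and 3 Nrl-/- libraries and a line at each mean. The groups are apart in every gene. Cep164 lies between 193 and 203 in rods and between 19.01 and 33.2 in Nrl-/-, and Cep112 lies below 1 in rods.

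Among the IFT-A genes, whose complex returns cargo to the cell body, 3 of 4 were higher in rods and 1 was higher in Nrl-/- photoreceptors. The test was against no change, where the shares of all genes tested were 29.5% and 31.4%. The median log2 fold change of the 4 was 0.58. Ttc21b (IFT139) was at 33.0, 34.1 and 32.4 CPM in rods and 19.4, 18.7 and 19.1 in Nrl-/- (log2 fold change 0.80, SE 0.12, adjusted p = 0.000171). Ift140, a core subunit, had a log2 fold change of 0.68 (SE 0.16, adjusted p = 0.00255) and Ift122 of 0.47 (SE 0.11, adjusted p = 0.00333). Ift43, a small subunit, went the other way, at 32.4, 55.6 and 39.1 CPM in rods and 61.0, 65.9 and 77.5 in Nrl-/- (log2 fold change -0.69, SE 0.18, adjusted p = 0.00621). No IFT-A gene passed the test against a 2-fold change.

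IFT-B genes were called in both directions. Of the 13 measured, 6 were higher in rods, 4 were higher in Nrl-/- and 3 did not pass (29.5% and 31.4% of all genes tested were higher in rods and in the Nrl-/- cells), and the median log2 fold change was 0.05. Ift88, a core subunit needed to build the outer segment, was at 110, 111 and 122 CPM in rods and 58.6, 55.1 and 54.2 in Nrl-/- (log2 fold change 1.03, SE 0.11, adjusted p = 6.85e-06). Ift172, at the tip of the peripheral complex, had 66.9, 72.5 and 70.0 CPM in rods and 44.0, 38.5 and 29.3 in Nrl-/- (log2 fold change 0.91, SE 0.15, adjusted p = 0.000239). Both stood apart between the groups in the direction of rods.

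The opposite held for Ift57 and Ift22 within the same complex. Ift57, another peripheral subunit, was at 22.6, 24.0 and 28.0 CPM in rods and 58.9, 57.1 and 50.2 in Nrl-/- (log2 fold change -1.16, SE 0.13, adjusted p = 1.44e-05). Ift22, a small GTPase-like subunit, was at 24.8, 35.4 and 31.5 CPM in rods and 56.4, 62.7 and 67.0 in Nrl-/- (log2 fold change -1.02, SE 0.15, adjusted p = 9.04e-05). Ift52 and Ift80 were also higher in Nrl-/-, with log2 fold changes of -0.60 and -0.44. Ift27, the GTPase that links the IFT-B train to the BBSome, was at 35.2, 47.3 and 45.3 CPM in rods and 45.3, 52.2 and 54.3 in Nrl-/-, with overlapping groups (log2 fold change -0.25, SE 0.14, adjusted p = 0.144).

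Ttc30a1 and Ttc30b, near-identical copies that encode IFT70, had log2 fold changes of 0.92 (SE 0.17) and 1.01 (SE 0.14), both called in the direction of rods against no change. Reads shared between these copies and Ttc30a2 could not be assigned to a single gene, so their levels are uncertain.

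In the BBSome and its helpers, rods were higher for 6 of 10 genes and Nrl-/- for 2 (29.5% and 31.4% of all genes tested). The median log2 fold change was 0.68. Apart from Bbs7, Bbs2 and Bbs9, the chaperonin genes Bbs12 and Bbs10, which assemble the complex, were higher in rods (log2 fold changes 1.02 and 0.77), as was the subunit gene Bbs5 (0.58). Bbs4, the subunit that contacts pericentriolar material, was at 416, 555 and 492 CPM in rods and 590, 671 and 680.5 in Nrl-/- (log2 fold change -0.41, SE 0.13, adjusted p = 0.0186). Arl6, the GTPase that recruits the BBSome to membranes, was at 338, 390 and 322 CPM in rods and 487, 576 and 668 in Nrl-/- (log2 fold change -0.72, SE 0.14, adjusted p = 0.000802). Nrl-/- libraries stood above rod libraries for both. The subunit Ttc8 (BBS8) overlapped, at 335, 288 and 273 CPM in rods and 324, 309 and 304 in Nrl-/- (log2 fold change -0.07, SE 0.12), and Bbs1 did not pass (log2 fold change 0.31, SE 0.13, adjusted p = 0.0604).

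The transition zone genes leaned to rods, with 9 of 13 higher in rods and 1 higher in Nrl-/- (29.5% and 31.4% of all genes tested). Their median log2 fold change was 0.61, though none passed the 2-fold test. Rpgrip1, the scaffold that tethers RPGR to the connecting cilium, was at 1193, 1116 and 1358 CPM in rods and 953, 518 and 418 in Nrl-/-, so that Nrl-/- replicate 1 stood nearer to rods than to its own group (log2 fold change 0.96, SE 0.25, adjusted p = 0.00514). Rpgr, the GTPase regulator mutated in X-linked retinitis pigmentosa, was at 97.0, 74.8 and 81.4 CPM in rods and 57.3, 37.6 and 36.5 in Nrl-/- (log2 fold change 0.95, SE 0.18, adjusted p = 0.000635). Cep290, which bridges the axoneme and the membrane, was at 260, 291 and 307 CPM in rods and 230, 161 and 174 in Nrl-/- (log2 fold change 0.60, SE 0.14, adjusted p = 0.00333). All 3 genes were above in every rod library.

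Cc2d2a, which encodes a C2 domain protein of the gate, was at 167, 141 and 136 CPM in rods and 83.6, 52.3 and 52.1 in Nrl-/- (log2 fold change 1.24, SE 0.18, adjusted p = 9.49e-05 against no change). Rpgrip1l had a log2 fold change of 1.12 (SE 0.16), and the tectonic genes Tctn1, Tctn3 and Tctn2 had 1.28, 1.08 and 0.61, all called in the direction of rods. Tctn1 was low, at 5.66 ± 0.893 CPM in rods and 2.32 ± 0.281 in Nrl-/- (SD, n = 3). Mks1 (log2 fold change 0.28, SE 0.13, adjusted p = 0.0722) and Nphp4 (-0.26, SE 0.15, adjusted p = 0.147) did not pass.

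RefSeq exons of an opposite-strand gene covered 17.7% of the Rpgrip1 exons (Supt16), 32.9% of Tctn1 (Hvcn1), 8.64% of Cep290 and 37.1% of Cep57 (Mtmr2). The library kit does not mark strand, so reads of such overlapping genes cannot be told apart there.

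In lipidated protein trafficking, Unc119, the acyl-binding carrier of transducin, had the highest mean CPM of the 76 genes in both groups and overlapped between the groups, at 1392, 1296 and 1350 CPM in rods and 919, 1153 and 1711 in Nrl-/- (log2 fold change 0.09, SE 0.19, adjusted p = 0.687). Its relative Unc119b was at 22.2, 19.3 and 22.4 CPM in rods and 46.8, 47.0 and 44.7 in Nrl-/- (log2 fold change -1.11, SE 0.12, adjusted p = 1.21e-05). Arl3, the GTPase that releases lipidated cargo, was at 197, 236 and 201 CPM in rods and 239, 307 and 315 in Nrl-/- (log2 fold change -0.44, SE 0.13, adjusted p = 0.0136). Nrl-/- libraries stood above rod libraries for Unc119b and Arl3.

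Of the 9 appendage genes, rods were higher for 5 and Nrl-/- for 3 (29.5% and 31.4% of all genes tested), with Cep170 not called. Of the 3, Cep112 met the count minimum through the Nrl-/- libraries alone. The appendage group held the widest range of log2 fold changes, from -4.99 to 2.97. Besides those named, Cep89 and Cep83, both distal appendage genes, had log2 fold changes of 0.94 (SE 0.11) and 1.05 (SE 0.29). Of 21 genes for centriole assembly, capping, satellites and the linker between centrioles, 11 were higher in rods and 1 in Nrl-/- (29.5% and 31.4% of all genes tested). The other 9 did not pass, and the median of the 21 was 0.44. Cep295, which elongates centrioles, was at 31.2, 29.95 and 31.2 CPM in rods and 19.1, 8.90 and 8.46 in Nrl-/- (log2 fold change 1.34, SE 0.26, adjusted p = 0.000932 against no change). Cep250, the linker protein C-NAP1, was at 152, 163 and 186 CPM in rods and 119, 89.7 and 90.6 in Nrl-/- (log2 fold change 0.74, SE 0.14, adjusted p = 0.000637). Cep78, mutated in a cone-rod dystrophy with hearing loss, was the exception, at 32.6, 24.1 and 33.7 CPM in rods and 53.9, 42.4 and 37.1 in Nrl-/- (log2 fold change -0.56, SE 0.17, adjusted p = 0.0138). Cep126 and Cep83os were placed in no role group, and their log2 fold changes were 1.17 (SE 0.24) and -0.32 (SE 0.14).

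Levels between genes were compared as mean CPM per kb of exon. The 76 genes ran from 0.081 to 879 in rods, with a median of 14.99, and from 0.127 to 824 in Nrl-/-, with a median of 11.6. The order of the top genes differed between the groups. In rods Unc119 (879), Bbs7 (308), Rpgrip1 (234.5), Bbs5 (220.5) and Arl3 (214) led and held 49.1% of the summed level, whereas in Nrl-/- Unc119 (824), Arl6 (296), Arl3 (291), Bbs4 (253) and Bbs5 (148) led and held 55.3%. BBSome genes had a median level of 112 per kb in rods and 65.6 in Nrl-/-, IFT-B genes 32.5 and 40.5, IFT-A genes 26.3 and 18.5, and transition zone genes 12.5 and 8.36. Subunits of the BBSome were far from equal, since Bbs1 was at 6.01 per kb in rods and Bbs7 at 308. The lowest of the 76 genes in rods was Cep112.

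**Figure D3:**
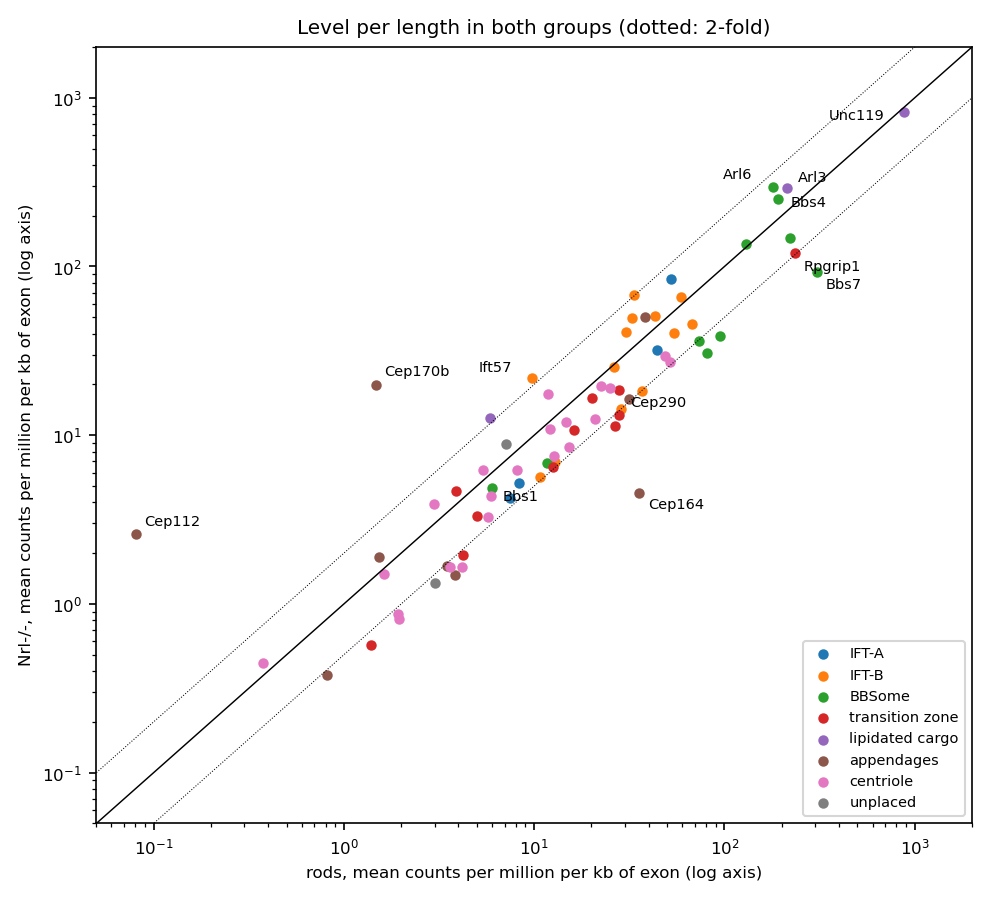
Mean RNA level of 73 of the 76 cilium genes in rods and in Nrl-/- photoreceptors, in CPM per kb of exon on log axes, coloured by role. The solid line marks equal levels and the dotted lines a 2-fold difference. Unc119 lies at the top on the line of equality, Cep164 lies far below it, and Cep112 and Cep170b far above.

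Cilium genes outside the symbol rule gave a background. Of 62 such genes tested in 4 lists, 24 were higher in rods and 10 higher in Nrl-/- against no change, with a median log2 fold change of 0.14, and 4 and 3 passed the 2-fold test. The shares of all genes tested were 29.5% and 31.4% against no change and 6.88% and 13.3% in the 2-fold test. In the list of connecting cilium and axoneme genes, the axonemal microtubule protein Rp1 was at 3413, 3592 and 3255 CPM in rods and 449, 351 and 369 in Nrl-/- (log2 fold change 3.13, SE 0.14, adjusted p = 2.72e-08 against a 2-fold change). Poc1b (2.25), a centriolar protein, and Adgrv1 (1.51), of the periciliary membrane complex, also passed. Of the other IFT and motor genes, the dynein-2 subunit gene Wdr60 passed (1.43), and Kif3a, a kinesin-2 motor, did not, with -0.10 (SE 0.10).

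The list of other genes of lipidated protein trafficking went in the direction of Nrl-/-, with 5 of 7 higher there (31.4% of all genes tested) and none higher in rods (29.5%). Pde6d, the prenyl-binding carrier, was at 66.6, 90.9 and 94.6 CPM in rods and 197, 253 and 322 in Nrl-/- (log2 fold change -1.61, SE 0.19, adjusted p = 0.00415 against a 2-fold change), and Tulp3, a tubby family adaptor for ciliary membrane proteins, had -2.64 (SE 0.45). Trim32, a BBS gene that encodes a ubiquitin ligase, was also past the threshold in Nrl-/- (log2 fold change -1.38, SE 0.11). Of 11 motile cilia genes only 3 were high enough to test, and Dnaic1 was past the threshold in Nrl-/-, at 13.3 ± 1.55 CPM against 1.80 ± 1.03 in rods (SD, n = 3). The other 2, Dnah9 and Ccdc39, were higher in rods against no change, with log2 fold changes of 0.78 (SE 0.22) and 0.56 (SE 0.18). Among transcription factors, Rfx3 and Rfx1, which bind the X-box, were higher in rods against no change. Their log2 fold changes were 0.81 (SE 0.15) and 0.84 (SE 0.18). Rfx5 went the other way and was higher in Nrl-/- (log2 fold change -1.004, SE 0.26, edgeR adjusted p = 0.00609 against no change). Rfx2 had -0.02 (SE 0.16) and Rfx7 had 0.25 (SE 0.19), and neither passed. Of all genes tested, 29.5% were higher in rods and 31.4% in Nrl-/-.

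Above 1 kb of exon, the median fold change of all genes rose with exon length, and the cilium genes were somewhat longer than other genes. Median exon length was 3583 bp for the 76 genes and 3112 bp for all genes tested. The median log2 fold change of all genes was -0.12 at 2 to 3 kb of exon, 0.16 at 4.5 to 6.5 kb and 0.35 above 6.5 kb, and that of the cilium genes in the same ranges was 0.59, 0.82 and 0.88. The cilium genes did not rise steadily, since the 20 at 3 to 4.5 kb had a median of 0.29 (all genes -0.0023). The 6 at 1 to 2 kb had -0.034 (all genes -0.14), and the 4 under 1 kb had -0.56 (all genes 0.070). A correction by the smoothed trend of log2 fold change with exon length moved the median of the 76 genes from 0.57 to 0.77, and a robust form of it, chosen after seeing the data, to 0.41. The first trend was not centred on the median of all genes. At Bbs7, with 2598 bp of exon, it stood at -0.34, in a range whose all-gene median was -0.12. The rise to 0.77 thus includes a shift apart from exon length, and the median of all genes after the correction was not computed. With the robust form Cep290 came to 0.12, Cep350 to 0.78 and Cep295 to 1.00.

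**Figure D4:**
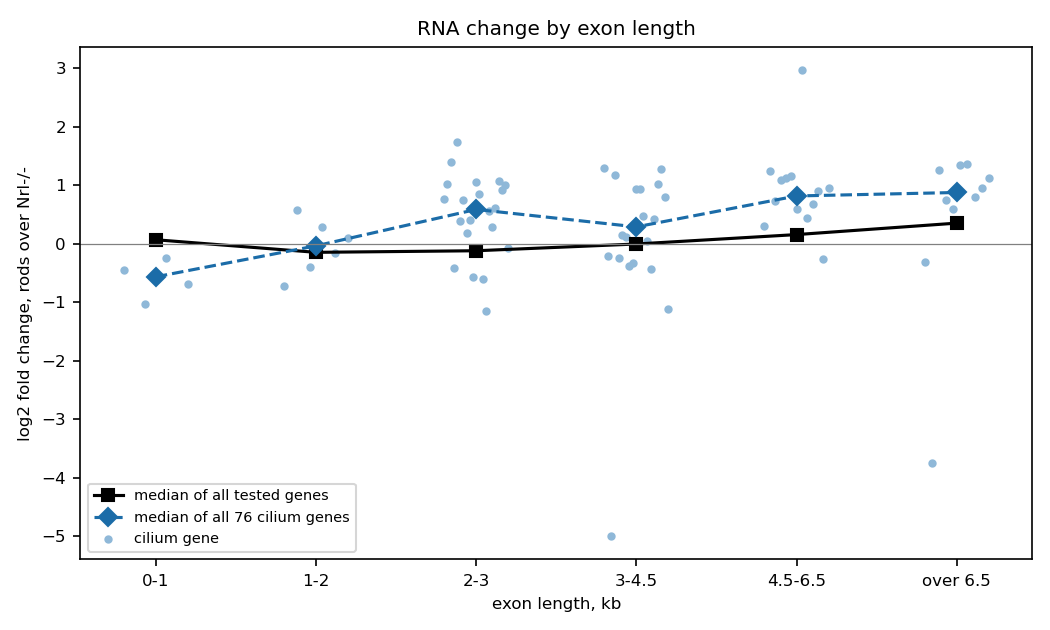
Log2 fold change, rods over Nrl-/- photoreceptors, by exon length in kb. Light points are 73 cilium genes, diamonds the median of all 76 in each range, and squares the median of all genes tested. Both medians are highest above 6.5 kb of exon, at 0.88 and 0.35.

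Promoters of the cilium genes were open in all photoreceptor types. A peak lay within 1000 bp upstream to 100 bp downstream of a start site in 74 of 76 genes in each of the 4 peak lists, called by the authors per sorted population, and in all 4 lists for 73, or 96.1%, against 76.7% of 12279 expressed genes. Ift122 had a promoter peak in no list, Ift27 in that of double-sorted green cones alone, and Bbs1 in all lists but that one. The median fold enrichment over the local background, at the promoters with a peak, was 18.8 in rods, 17.8 in Nrl-/- and 16.6 in double-sorted green cones. Peak lists have no replicates.

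Rods were then compared with cones, Nrl-/- photoreceptors and double-sorted green cones taken as a single group of 4 libraries, in the edgeR test against a 2-fold change at an adjusted p under 0.1. Of 111 elements at promoters of cilium genes 109 could be tested, and 2 were more open in rods (1.5% of all promoter elements were) and 1 in cones (7.05% of all). Against no change, 33 were more open in rods (24.9%) and 10 in cones (13.7%). The median log2 fold change was 0.24, against 0.22 over all promoter elements. Against Nrl-/- photoreceptors alone, 4 of 108 were more open in rods (2.87% of all promoter elements) and 1 in Nrl-/- (8.87%), and against no change 43 (37%) and 16 (20.7%).

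The Cep112 promoter, whose element holds the X-box printed above 84 bases before the start site, was the promoter more open in cones. It measured 10.6 and 8.09 CPM of the reads in elements in the 2 rod libraries, 70.1 and 75.9 in Nrl-/-, and 81.8 and 49.5 in the double-sorted cones. Rods over cones, the log2 fold change was -2.89 (SE 0.29, edgeR adjusted p = 0.000464), in the direction of its RNA. The single-sorted green cones, which were not in the test, lay at 48.9 (replicate 1, of doubtful source) and 55.7. Every cone library was above both rod libraries.

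The promoter elements more open in rods were 1 of the 2 of Rpgrip1 and 1 of the 3 of Unc119. The Rpgrip1 element over the start site did not pass against cones (log2 fold change 1.28, SE 0.68, adjusted p = 0.460). Against Nrl-/- alone it was more open in rods (1.48, SE 0.28, adjusted p = 0.0529). The called Unc119 element, from chr11:78345385, lay at a start site within the gene, which begins at 78343495. The called Rpgrip1 element, centred 324 bp upstream of the start site, measured 22.0 and 16.4 CPM in rods, 0.830 and 2.27 in Nrl-/-, and 0 and 5.40 in double-sorted green cones (log2 fold change 3.27, SE 0.63, adjusted p = 0.0110). The Unc119 element measured 102.1 and 102 CPM in rods, 38.6 and 35.2 in Nrl-/-, and 18.7 and 47.7 in double-sorted green cones (log2 fold change 1.55, SE 0.27, adjusted p = 0.0526), although Unc119 RNA overlapped between rods and Nrl-/-. Without rod replicate 1 neither promoter passed. The Cep170b promoter, whose gene was far lower in rods in RNA, was at 48.7 and 41.8 CPM in rods, 17.8 and 20.0 in Nrl-/-, and 21.03 and 26.1 in double-sorted green cones, which did not pass the 2-fold test (log2 fold change 1.12, SE 0.26, adjusted p = 0.378) but was higher in rods against no change (adjusted p = 0.00698).

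The promoters of the 6 genes past the RNA threshold in rods, taken as 1000 bp upstream to 100 bp downstream, did not pass the 2-fold test. For each, the promoter element with the most reads was taken. That of Cep164 was at 90.7 and 96.5 CPM in rods, 64.3 and 51.1 in Nrl-/-, and 42.9 and 41.4 in double-sorted green cones (log2 fold change 0.90, SE 0.21, adjusted p = 0.00845 against no change). That of Bbs9 was also higher in rods against no change, with a log2 fold change of 0.96 (SE 0.29). For Bbs7, Bbs2 and Cep350 they did not pass, with 0.14 (SE 0.21), 0.34 (SE 0.15) and 0.31 (SE 0.23).

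Of 233 elements nearest to a cilium gene 229 could be tested, and 17 were more open in rods (3.98% of all elements were) and 15 in cones (18.1% of all). Against Nrl-/- alone the counts were 23 (6.38%) and 17 (21%) of 224. The 17 lay at 10 genes, 14 of them inside the gene, at a median of 6763 bp from the start site. The 15 lay nearest to 11 genes, 6 of them inside, at a median of 76935 bp. Of all 229 tested, 155 lay inside the gene, or 67.7%, against 82.35% of the 17 and 40% of the 15, and these differences were not tested. Of the 10 genes, 7 were higher in rods in RNA against no change and 1 was higher in Nrl-/-. Of the 11, 5 were higher in rods and 2 in Nrl-/-, Cep112 among the 2. Over the 76 genes 42 and 14 were, and over all genes tested 29.5% and 31.4%. Cep164 and Ttc8 were in both sets. The RNA comparison shares no libraries with the ATAC-seq, but the genes were not tested as groups.

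Cep164, with the highest RNA log2 fold change of the 76 genes, had 3 such elements inside the gene. The element printed above, 23.45 kb from the start site, measured 62.0 and 58.9 CPM in rods, 15.8 and 23.2 in Nrl-/- and 11.7 and 7.20 in double-sorted green cones (log2 fold change 1.96, SE 0.33, adjusted p = 0.0173). Rod libraries were above all others, including the single-sorted green cones, at this element. A Cep164 element at 14.8 kb measured 8.73 and 11.7 CPM in rods, 0.830 and 0.682 in Nrl-/-, and 0 and 1.80 in double-sorted green cones (log2 fold change 3.66, SE 0.69, adjusted p = 0.00846). The remaining element, 0.60 kb from the start site, measured 9.56 and 8.655 CPM in rods, 2.90 and 2.04 in Nrl-/-, and 1.56 and 2.70 in double-sorted green cones (log2 fold change 1.98, SE 0.52, adjusted p = 0.0702). It lay outside the promoter window but within the alternative of 500 bp either side. Another 4 elements, nearest to the Cep164 start site but 160 to 193 kb away within Dscaml1, were more open in cones.

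Bbs2 and Bbs9 also had elements more open in rods. That of Bbs2 lay 12.8 kb upstream and measured 15.4 and 19.2 CPM in rods, 2.07 and 3.64 in Nrl-/- and 1.56 and 5.40 in double-sorted green cones (log2 fold change 2.47, SE 0.46, adjusted p = 0.0128). Those of Bbs9 lay 0.80 and 274 kb into the gene. Cep350 had no element called more open in rods. An element 17.3 kb upstream of it was more open in Nrl-/- than in rods, at 0.832 and 0.753 CPM in rods and 5.81 and 3.64 in Nrl-/- (log2 fold change -2.50, SE 0.70, adjusted p = 0.0242), and did not pass against cones.

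Arl3 and Cep85 had elements more open in rods, and neither passed the 2-fold test in RNA. The Arl3 element 3.85 kb from the start site measured 51.6 and 45.9 CPM in rods, 4.98 and 10.0 in Nrl-/- and 4.67 and 10.8 in double-sorted green cones (log2 fold change 2.67, SE 0.34, adjusted p = 0.00204). The printed Arl3 element, 9.85 kb from the start site, measured 105 and 101 CPM in rods, 35.7 and 42.3 in Nrl-/- and 18.7 and 44.1 in double-sorted green cones (log2 fold change 1.54, SE 0.26, adjusted p = 0.0524). Both were more open in rods, while Arl3 RNA was lower in rods. Cep85, a centrosomal protein that restrains centriole separation, had elements at 21.8 and 6.15 kb with log2 fold changes of 3.26 and 2.92, and an RNA log2 fold change of 0.93 (SE 0.14).

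After the Cep112 promoter, the elements more open in cones with the lowest p lay between genes, far from the start sites of Cep135 and Ift57. The one nearest to Cep135, a centriole assembly gene, lay 76.9 kb away and measured 1.66 and 2.26 CPM in rods, 19.1 and 14.8 in Nrl-/-, and 16.4 and 9.0 in double-sorted green cones (log2 fold change -2.90, SE 0.48, adjusted p = 0.00576). Cep135 RNA was higher in rods (log2 fold change 1.13, SE 0.22). The one nearest to Ift57, 154 kb upstream, measured 0.416 and 0 CPM in rods, 7.47 and 5.45 in Nrl-/-, and 4.67 and 10.8 in double-sorted green cones (log2 fold change -4.87, SE 0.99, adjusted p = 0.00924), and Ift57 RNA was higher in Nrl-/-.

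**Figure D5:**
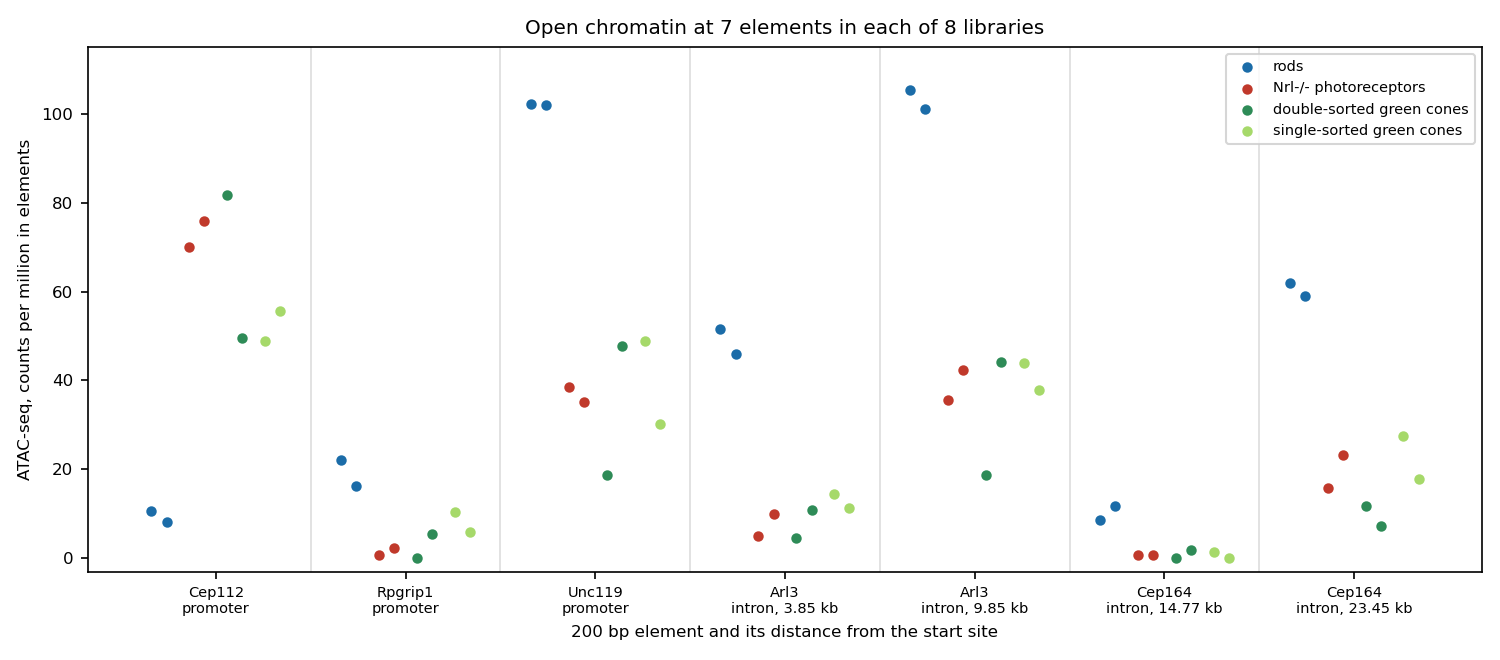
ATAC-seq level of 7 elements called in the comparison of rods with cones, in CPM of reads in elements, with a point for each of the 8 libraries. The Cep112 promoter is lowest in rods, and in the other 6 elements both rod libraries lie above all 6 cone libraries.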

How the data were processed

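RNA-seq of sorted rods and Nrl-/- photoreceptors (3 libraries each) and ATAC-seq of rods, Nrl-/- photoreceptors, single-sorted and double-sorted green cones (2 each) were analysed. The authors deposited raw counts per gene, from single-end reads aligned to GRCm38 (STAR 2.4.2a) and assigned by HTSeq 0.6.1p1 (strand setting not given in the sources used here), and raw counts per 200 bp element, from Bowtie2 2.2.3 alignments without duplicates, restricted to short inserts. The deposited peak lists give MACS2 2.1.0 fold enrichment over local background as a ratio, with replicates pooled. No column went unmapped (0).

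Lines for unassigned reads, 41.3% to 49.2% of each RNA library, were left out of library sizes. Counts were TMM-scaled, filtered with filterByExpr and fitted with edgeR 4.0.16 (R 4.3.3, limma 3.58.1) as quasi-likelihood models. The threshold was a log2 fold change of 1 (adjusted p under 0.05 for RNA and 0.1 for ATAC), and a second test was against 0, both with Benjamini-Hochberg adjustment over all 12327 genes or all 51563 elements (49364 against Nrl-/- alone). Scripts were tested on simulated data. The study lists the libraries as biological replicates, each made from the pooled retinas of several mice, so p-values measure the spread between pools. Same-numbered RNA libraries correlated at 0.127, 0.0493 and 0.0226 and were treated as unpaired.

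A promoter ran from 1000 bp upstream to 100 bp downstream of a RefSeq start site. Promoter windows came from RefSeq, and motifs were searched on both strands. The genes and lists were chosen with earlier results of these data known. Named genes were those past the 2-fold RNA test, the highest and lowest of each role list, a fixed list, near-identical copies, the extremes of level and up to 3 genes per other list. Further genes were chosen after their values were seen. Some genes that the rule named are not reported here, and counts and medians include them. Alternatives were other normalizations and filters, DESeq2 1.42.0, a replicate block, a length correction, a 500 bp promoter, single-sorted green cones and each library left out.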

Additional observations from a re-analysis of the deposited data

How the results depend on the processing

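In RNA, the count of genes past the 2-fold test in rods, 6 with all libraries, ran from 5 to 12 with a library left out, the 12 without Nrl-/- replicate 1, and was 4 with DESeq2, which lost Bbs9 and Cep350. The count in Nrl-/- was 2 under every alternative run. Cep350 passed in 6 of 12 alternatives and Bbs9 in 10, and Bbs7, Bbs2, Cep164, Cep170b and Cep112 passed in all 12. The median over the 76 genes ran from 0.49 to 0.59 with a library left out. It was 0.77 after the length correction, whose trend was not centred on all genes, and 0.41 after its robust form, chosen after seeing the data. Some genes that were not called changed sign with a library left out. Over the libraries left out, Ttc8 ran from -0.15 to 0.0066 (without rod replicate 3) and Unc119 from -0.078 (without Nrl-/- replicate 1) to 0.375. With the replicate number as a block, which the labels do not give a meaning, 8 genes passed in rods (Cc2d2a and Cep295 added) and 2 in Nrl-/-, and 44 and 15 against no change. In ATAC-seq against Nrl-/- alone the block left the promoter counts at 4 and 1.

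For promoters, the count more open in rods than in cones, 2 with all libraries, was 1 with DESeq2 and 4 with a 500 bp window, and ran from 0 (without rod replicate 1) to 3 with a library left out. Against Nrl-/- alone it was 2 with DESeq2 in place of 4. The promoter median ran from 0.21 to 0.35 against cones and from 0.18 to 0.31 against Nrl-/- with a library left out, and was 0.17 with single-sorted green cones, of which replicate 1 is of doubtful source. The cause of these shifts was not tested. Depth limits the ATAC-seq most in the double-sorted green cones, where many elements hold few reads.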
